A study of Homo sapiens with 8 samples.

Results

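Ribosome biogenesis in the nucleolus was followed through the mRNA levels of 55 genes, chosen by name for their function, of 31721 genes in the table. The choice of these genes, and of the further lists, markers and motifs below, was made with earlier results of these data known. The 55 genes were grouped by the role of their products: 18 in small subunit assembly, 19 in large subunit assembly, 7 in the small nucleolar ribonucleoproteins (snoRNPs), 4 in RNA polymerase I, and 7 nucleolar organisers and regulators. All 55 passed the filter on low values, a mean of at least 1 FPKM (fragments per kilobase of exon, scaled per library, a level per length) over the libraries, as did 12443 genes in all. PolyA RNA was sequenced from A2780, an established human ovarian carcinoma line. Cells had been exposed for 24 hours to the PARP inhibitor olaparib, to the CDK4 and CDK6 inhibitor palbociclib, to the combination of both, or to the solvent DMSO, with 2 libraries in each of the 4 groups. The labels state no dose, all groups come from 1 cell line, and the 2 libraries of a group are called biological repeats without a statement that they came from separate cultures. The p-values therefore measure the spread between these libraries, which may be partly technical.

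The nucleolus is where RNA polymerase I transcribes the ribosomal RNA (rRNA) precursor and where most steps of ribosome assembly take place. The precursor is folded, cut and chemically modified with the help of snoRNPs and of large assembly complexes. Some of these complexes build the small subunit and others the large subunit. Demand for new ribosomes is tied to cell growth, and many genes of the pathway are known targets of the transcription factor MYC, which binds with its partner MAX to the E-box hexamer CACGTG.

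Depth, recovered from the deposited values, was 20566164 to 30777037 reads in the 6 treated libraries and 31183430 and 34057059 reads in the DMSO libraries. The part of depth in the differences with DMSO was not tested. Of marker genes set down for this work, KRT7, WT1, SOX17, PTPRC, CD3E and KDR had no values and are left out of the counts. Among those with values, 0 of 7 epithelial and 0 of 5 ovarian carcinoma genes reached a mean of 1 FPKM. Of 6 mesenchymal genes 4 did, with up to 292 FPKM for the intermediate filament gene VIM. Leukocyte (0 of 3) and endothelial (0 of 3) markers did not reach it either. The labels give the morphology as epithelial, and the measured epithelial markers were at 0.555 FPKM or less on average. Summed mesenchymal markers were 281 and 274 FPKM with olaparib, 401 and 375 with palbociclib, 387 and 389 with the combination and 287 and 293 with DMSO. Summed epithelial markers were 0.873 and 0.718 FPKM with olaparib, 1.34 and 1.40 with palbociclib, 1.52 and 1.76 with the combination and 0.646 and 0.577 with DMSO. Both sums were thus higher with palbociclib and the combination than with DMSO, and their part in the results was not tested. VIM and EPCAM were the largest parts of the mesenchymal and epithelial sums. Not every gene followed its sum: ZEB1 had 5.84 and 5.70 FPKM with the combination and 6.56 and 6.42 with DMSO.

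Summed expression of the nucleolar genes was lower in each treatment than with DMSO. Over the 55 genes the total was 2841 and 2904 FPKM with olaparib, 2502 and 2405 FPKM with palbociclib, 2206 and 2222 FPKM with the combination, and 3450 and 3447 FPKM with DMSO. The 8 sums did not overlap between groups, and their order was combination, palbociclib, olaparib and DMSO, lowest first. As a share of all FPKM in a library, the genes took 1.01% and 1.02% with olaparib, 0.907% and 0.876% with palbociclib, 0.834% and 0.817% with the combination, and 1.17% in both DMSO libraries. These are levels relative to the other polyadenylated RNA of the same library, so that less RNA per cell and fewer cells that express a gene cannot be told apart. NPM1 and NCL alone made up much of the sums; without them the sums were 1954 and 2016 FPKM with olaparib, 1781 and 1714 FPKM with palbociclib, 1558 and 1578 FPKM with the combination, and 2368 and 2357 FPKM with DMSO.

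Single genes were tested with limma on log2(FPKM + 1), with p-values adjusted over all 12443 genes in a comparison and a threshold of 0.05. With olaparib 39 of the 55 genes were lower than with DMSO and 0 were higher, where 10.5% of all genes tested were lower and 4.13% higher. With palbociclib 51 were lower and 0 higher, where 31.4% of all genes were lower and 18.7% higher. With the combination 54 were lower and 0 higher, where 35.3% of all genes were lower and 21.5% higher. At an unadjusted p under 0.05, 50, 52 and 54 genes were lower in the 3 comparisons and none was higher, where 21.9%, 35% and 37.9% of all genes were lower and 10.6%, 21.8% and 23.8% higher at that threshold. A test on recovered reads (limma voom) called 45, 51 and 53 of the 55 lower and 0 higher. It called 10.9%, 26.9% and 29.8% of all genes lower and 12.3%, 28.6% and 31.4% higher.

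The split of all genes into lower and higher depended on scaling, while no nucleolar gene was called higher under any scaling tried. With olaparib it was 1307 lower and 514 higher as deposited, 473 and 939 after scaling to equal totals (TPM), 398 and 602 after quantile normalisation, and 1353 and 1525 in the test on recovered reads, which uses TMM scaling. With palbociclib it was 3904 and 2324 as deposited, 2691 and 3437 by TPM, 3136 and 2728 by quantiles, and 3348 and 3564 on recovered reads. With the combination it was 4398 and 2672 as deposited, 3014 and 4068 by TPM, 3604 and 3179 by quantiles, and 3712 and 3913 on recovered reads. Of the 55 genes, 28, 48 and 51 were lower with olaparib, palbociclib and the combination by TPM, and 23, 45 and 49 by quantiles.

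The olaparib count rested on having both libraries of both groups. It was 7 without olaparib library 1, 1 without olaparib library 2, 0 without DMSO library 1 and 1 without DMSO library 2. Over all genes the number lower than DMSO shrank as well in these fits, to 136, 10, 0 and 6, against 1307 in the fit of 8 libraries. The counts for palbociclib (48 to 51) and the combination (52 to 54) moved little when any 1 library was left out. Over all genes, fewer were lower with palbociclib or the combination when a library of the compared groups was left out. Both olaparib libraries lay below both DMSO libraries in 52 of the 55 genes (38.6% of all genes tested). That held for 53 genes with palbociclib (46.3%) and 54 with the combination (46.9%).

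The differences were moderate in size. The median log2 fold change over the 55 genes was −0.26 with olaparib, −0.37 with palbociclib and −0.53 with the combination, where the median over all genes tested was −0.031, −0.048 and −0.062. The lowest single value in each comparison was that of LYAR, at −0.48, −0.77 and −1.02. Ranked among the 12443 genes tested, the median gene of the set stood at percentile 5.64 of fold changes with olaparib, percentile 12.7 with palbociclib and percentile 8.79 with the combination. In the lowest 10% of all genes there were 38 of the 55 with olaparib, 23 with palbociclib and 30 with the combination. The nucleolar genes thus ranked lowest among all genes in the olaparib comparison, although their fold changes were smallest there; the difference in rank was not tested.

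**Figure D1:**
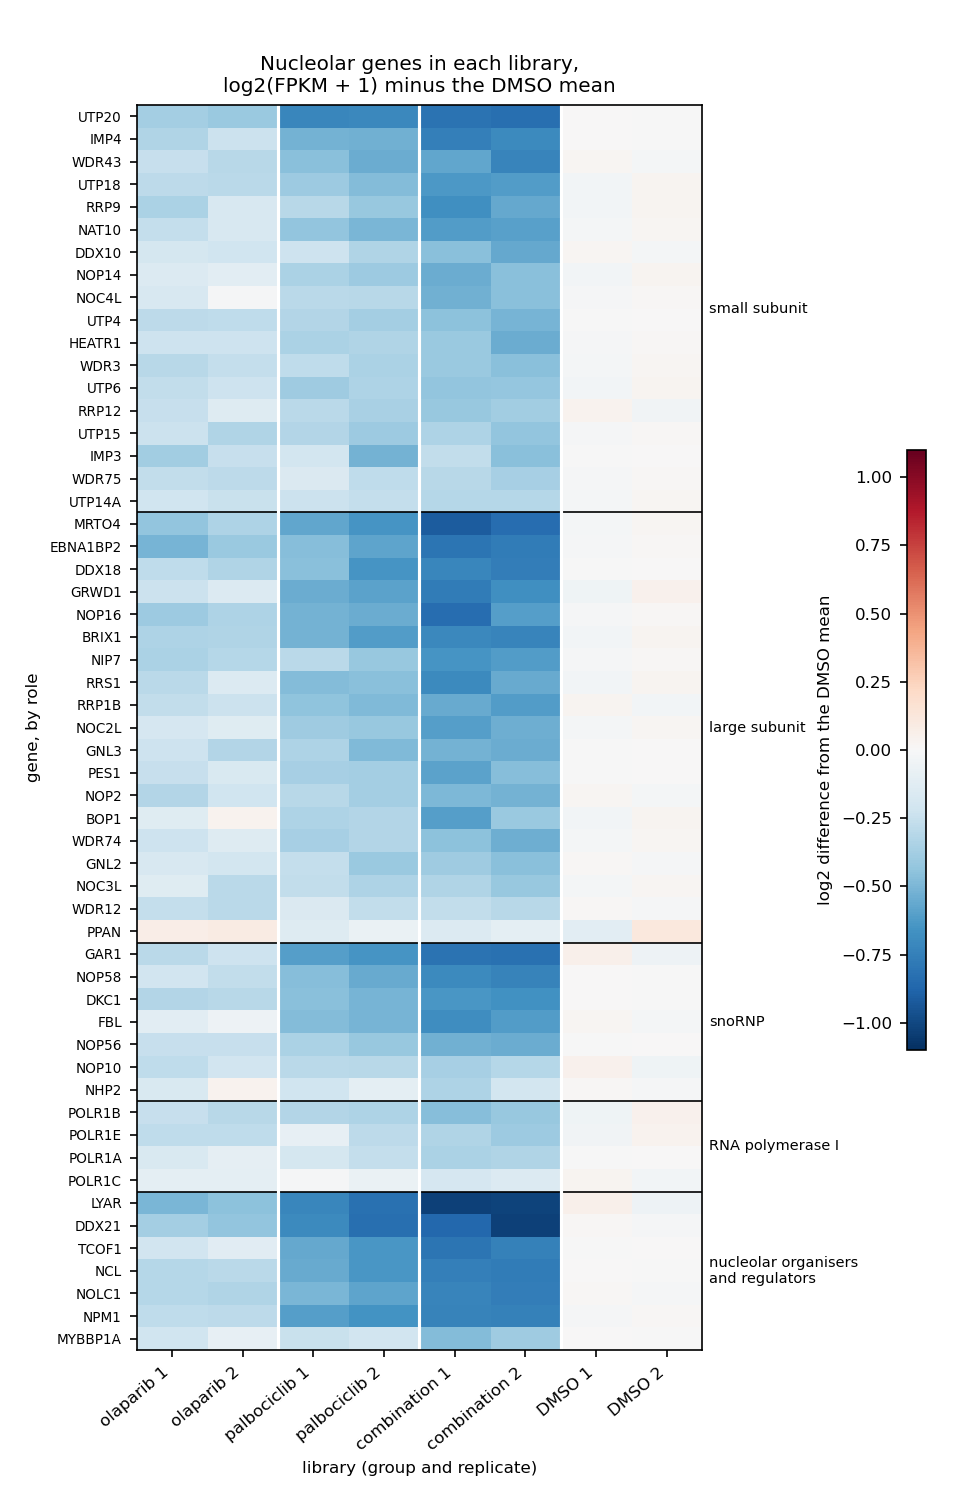
Each row is 1 of the 55 genes, grouped by role, and each column 1 library; colour gives log2(FPKM + 1) minus the mean of the DMSO libraries. Blue, for lower than DMSO, is seen in nearly every row of the treated columns and deepens towards the combination, with LYAR and DDX21 among the darkest rows and PPAN among the palest.

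The E-box hexamer CACGTG was looked for close to the starts of these genes. RefSeq promoters (build GRCh38.p14, 250 bases before to 50 after each listed start) were matched by symbol for 46 of the 55 genes, with 56 starts. The hexamer, which reads the same on both strands, was in the promoters of 22 of the 46 (47.8%), where 13.3% of the 8470 tested genes with a promoter in the table and 8.77% of all 27305 genes there held it. Within 50 bases of a start it was found in 20 of the 46 genes (43.5%), against 5.73% of the tested genes. In the promoters of 93 other genes of ribosome biogenesis, the further lists described at the end, it was in 19 (20.4%), and within 50 bases of a start in 15 (16.1%). Of 26 sites in the 22 genes, 12 lay before the start and 14 after it, from position −241 to position 42, with the start counted as position 0. By role, the hexamer was in 9 of 17 small subunit promoters, 7 of 15 large subunit promoters, 3 of 6 snoRNP promoters, 0 of 3 RNA polymerase I promoters and 3 of 5 promoters of organisers and regulators.

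The sequences around 5 of these sites are shown because they belong to the genes that are among the 3 lowest of their role in fold change with the combination and have a hexamer upstream of the start. EBNA1BP2 and IMP4 have a further site after the start, which is not shown. Upstream refers here to a listed RefSeq start. By the gene bounds of GENCODE release 29, the sites of LYAR, DDX21, EBNA1BP2 and IMP4 lie inside the annotated gene. That of UTP20 lies before it. Each is 30 bases on the strand of the gene, 5′ to 3′, with the hexamer in capitals. They lie at chr4:4290068-4290097 (minus strand, LYAR), chr10:68956604-68956633 (plus, DDX21), chr12:101280083-101280112 (plus, UTP20), chr1:43172790-43172819 (minus, EBNA1BP2) and chr2:130342682-130342711 (plus, IMP4). The first base of the hexamer is at position −64, −31, −10, −237 and −203 in that order.
LYAR: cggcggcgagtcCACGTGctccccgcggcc
DDX21: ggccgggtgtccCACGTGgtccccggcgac
UTP20: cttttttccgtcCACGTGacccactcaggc
EBNA1BP2: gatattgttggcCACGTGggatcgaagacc
IMP4: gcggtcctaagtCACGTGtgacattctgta
As whole stretches, the bases on either side differ between the 5 sites. The base just before the hexamer is c in LYAR, DDX21, UTP20 and EBNA1BP2 and t in IMP4. UTP20, the small subunit gene with the lowest fold changes, is shown with the whole 250 bases before its start (chr12:101279855-101280104, plus strand), in which the hexamer stands close to the end.
UTP20 upstream: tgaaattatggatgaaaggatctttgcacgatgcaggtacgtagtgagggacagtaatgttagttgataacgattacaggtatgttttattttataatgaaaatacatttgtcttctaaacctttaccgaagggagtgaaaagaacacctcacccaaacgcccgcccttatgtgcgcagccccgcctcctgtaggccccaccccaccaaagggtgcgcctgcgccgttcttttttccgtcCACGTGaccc

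**Figure D2:**
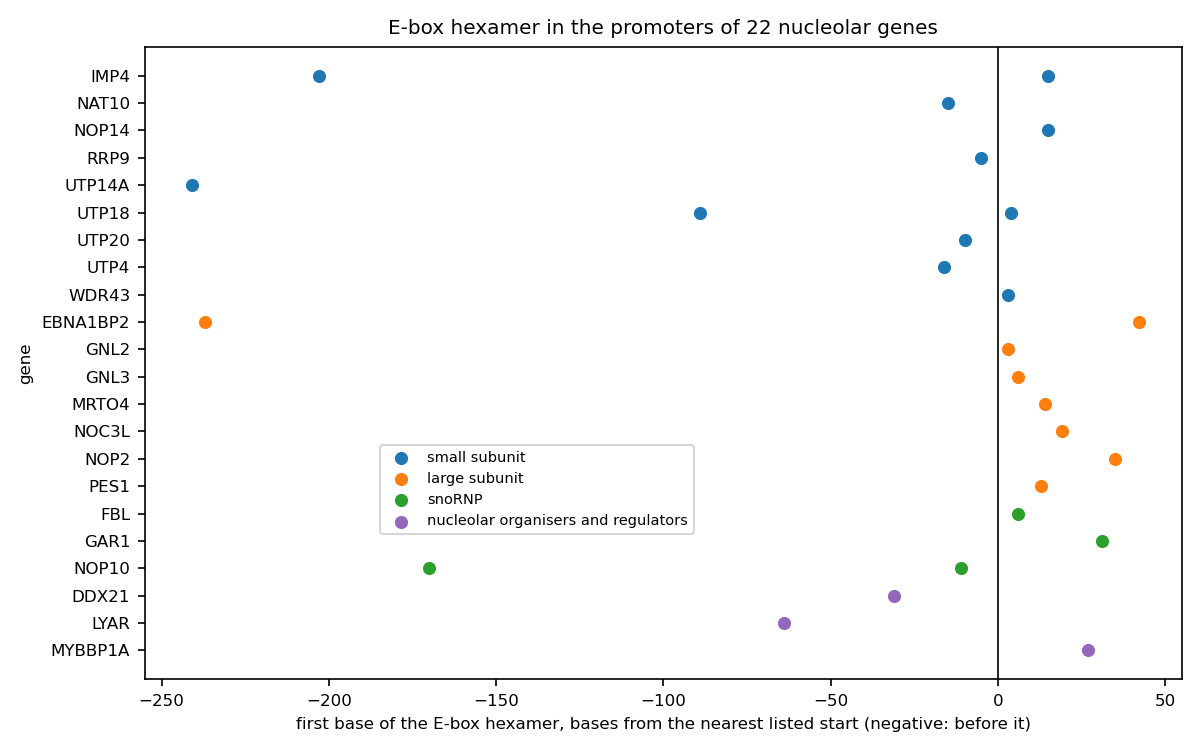
Horizontal axis: distance in bases from the nearest listed transcription start to the first base of the E-box hexamer, negative before the start; each row is 1 of the 22 genes and each point 1 of the 26 sites, coloured by role. Most points lie close to the start, and 20 of the 22 genes have a site within 50 bases of it.

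Genes with and without the hexamer were both lower. The 22 genes with CACGTG had a median log2 fold change of −0.27 with olaparib, −0.43 with palbociclib and −0.61 with the combination. The 24 genes whose promoters lack it had medians of −0.27, −0.35 and −0.48, and the 9 genes with no promoter in the table −0.24, −0.47 and −0.63. Differences between these sets were not tested. Of the 22 genes with it, 16, 22 and 22 were lower than DMSO past the threshold in the 3 comparisons, and of the 24 without it, 17, 21 and 23 were. Of all genes tested, with or without the hexamer, 10.5%, 31.4% and 35.3% were lower. The letters of 2 other motifs were searched on both strands in the same promoters. CCGGAAGT, which ETS factors bind, was in 26.1% of the 46 promoters, 26.9% of those of the 93 other pathway genes and 11.2% of those of all tested genes. TATAAA, the TATA box, was in 2.17%, 6.45% and 7.20%, and neither motif can overlap CACGTG on either strand. A match describes the letters of the promoter only.

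MYC itself moved differently from the nucleolar genes. It measured 83.1 and 90.8 FPKM with olaparib, 125 and 123 with palbociclib, 111 and 119.6 with the combination and 93.8 and 92.8 with DMSO. MYC mRNA was higher than with DMSO in palbociclib (0.41 ± 0.054, log2 fold change ± SE, limma adjusted p = 9.09e-04) and in the combination (0.30, adjusted p = 0.00282). With olaparib it did not pass the threshold (−0.10, adjusted p = 0.246). MAX, its partner, had log2 fold changes of −0.23 with olaparib (adjusted p = 0.0186), −0.11 with palbociclib (adjusted p = 0.0634) and −0.18 with the combination (adjusted p = 0.00801, limma). In palbociclib and the combination, MYC mRNA was thus higher while 51 and 54 of the nucleolar genes were lower. Whether these changes are linked was not tested, and MYC protein was not measured.

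In all 3 treatments organisers and regulators had the lowest median fold change of the 5 roles and RNA polymerase I genes the one nearest to DMSO. The median log2 fold change of the 7 organisers and regulators was −0.30 with olaparib, −0.60 with palbociclib and −0.76 with the combination. For the 7 snoRNP genes it was −0.25, −0.49 and −0.65, for the 19 large subunit genes −0.25, −0.40 and −0.57, and for the 18 small subunit genes −0.27, −0.36 and −0.49. The 4 RNA polymerase I genes had medians of −0.21, −0.21 and −0.35. Over the libraries of a group, the role medians varied with a pooled SD of 0.024 to 0.051 (n = 2 per group), and with olaparib the small subunit, large subunit and snoRNP medians lay within 1 such SD of each other. The order of the 3 roles between the ends changed under quantile normalisation, and differences between roles were not tested.

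**Figure D3:**
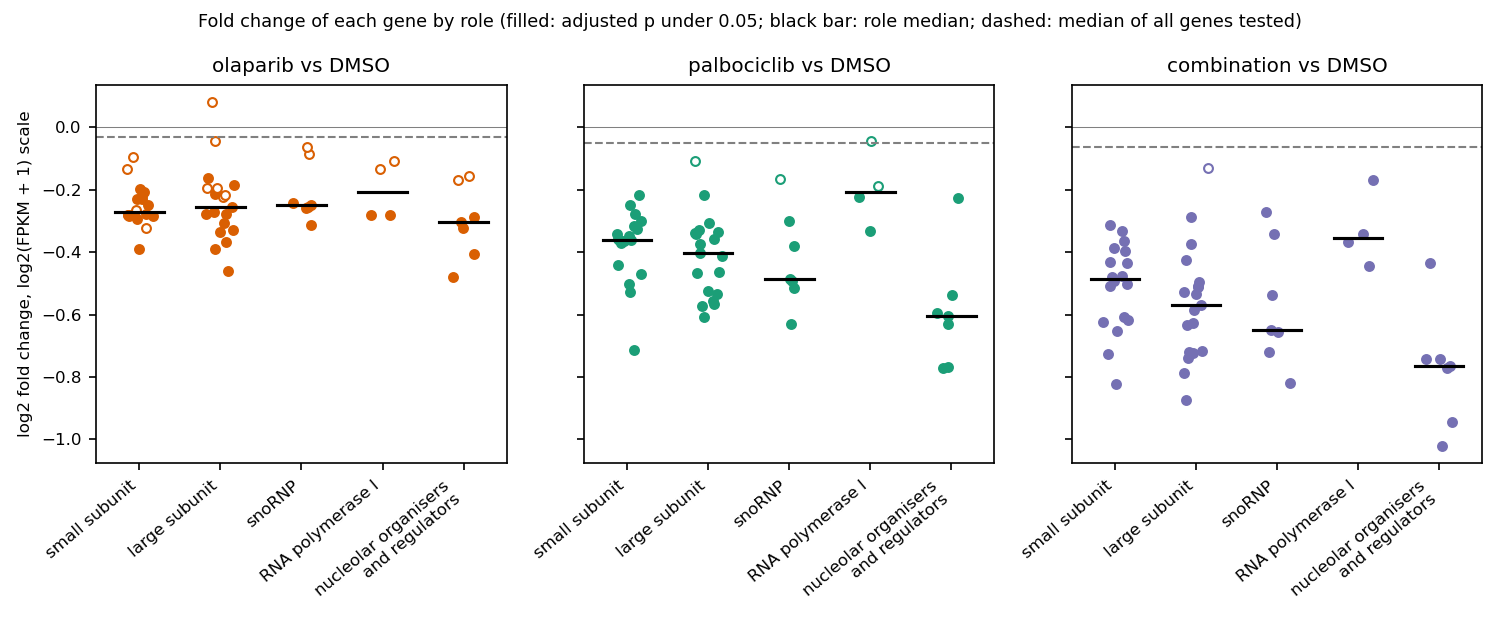
Log2 fold change, on the log2(FPKM + 1) scale, of each of the 55 genes by role in the 3 treatments against DMSO; filled points passed an adjusted p of 0.05, black bars are role medians and the dashed line the median of all genes tested. Role medians lie lower with the combination than with olaparib in all 5 roles, and the single open point with the combination is PPAN.

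The organisers and regulators held both the most abundant and the most reduced genes. With olaparib, palbociclib and the combination 5, 7 and 7 of the 7 were lower than DMSO, where 10.5%, 31.4% and 35.3% of all genes were. NPM1, nucleophosmin, is a chaperone of the outer nucleolar layer and had the highest level of the 55 genes. It measured 634 and 631 FPKM with olaparib, 508 and 489 with palbociclib, 462 and 459.8 with the combination and 766 and 778 with DMSO. Its groups did not overlap, and the log2 fold changes were −0.29, −0.63 and −0.74, each ± 0.036 (SE; limma adjusted p = 0.0113, 4.48e-05 and 1.57e-05). NPM1 has 45 pseudogenes by name in the annotation, so reads shared with copies make its level uncertain. NCL, nucleolin, an RNA-binding protein that acts on rRNA transcription and folding, measured 253 and 257 FPKM with olaparib, 214 and 202 with palbociclib, 186 and 184 with the combination and 316 and 313 with DMSO. Its fold changes of −0.30, −0.60 and −0.76 were close to those of NPM1.

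LYAR, a nucleolar zinc finger protein linked to cell growth and rRNA processing, fell furthest of the 55 genes in all 3 comparisons with DMSO. It lies at chromosome 4, 4267701 to 4290169, minus strand (GRCh38, ENSG00000145220) and measured 31.3 and 32.5 FPKM with olaparib, 26.8 and 24.9 with palbociclib, 21.5 and 21.7 with the combination and 46.6 and 43.1 with DMSO. No group overlapped another. The log2 fold changes were −0.48, −0.77 and −1.02, each ± 0.052 (SE; limma adjusted p = 0.00941, 7.44e-05 and 1.76e-05). DDX21, an RNA helicase that acts in rRNA transcription and processing, came next with palbociclib and the combination. It measured 95.8 and 91.8 FPKM with olaparib, 76.2 and 69.5 with palbociclib, 68.1 and 60.8 with the combination and 125 and 124 with DMSO, with log2 fold changes of −0.41, −0.77 and −0.94. Both genes carry one of the E-boxes printed above, upstream of a RefSeq start and inside the annotated gene.

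TCOF1 and MYBBP1A stood apart within this role. TCOF1 encodes treacle, which brings RNA polymerase I factors to the rRNA genes and is mutated in Treacher Collins syndrome. It measured 28.7 and 30.7 FPKM with olaparib, 22.3 and 21.1 with palbociclib, 18.8 and 19.6 with the combination and 33.4 and 33.5 with DMSO. With olaparib TCOF1 did not pass the threshold (−0.17, limma adjusted p = 0.0583), while with palbociclib (−0.60) and the combination (−0.77) it was lower. Palbociclib against olaparib gave −0.44 ± 0.048 for TCOF1, the lowest value of the 55 genes in that comparison. MYBBP1A, a Myb-binding protein that restrains rRNA gene transcription, had the smallest fold change of the role with the combination. It measured 34.4 and 37.7 FPKM with olaparib, 33.8 and 34.6 with palbociclib, 28.7 and 30.4 with the combination and 40.3 and 40.1 with DMSO.

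NOLC1, a chaperone of snoRNPs, was the seventh gene of the role, and its log2 fold changes were −0.32, −0.54 and −0.74.

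**Figure D4:**
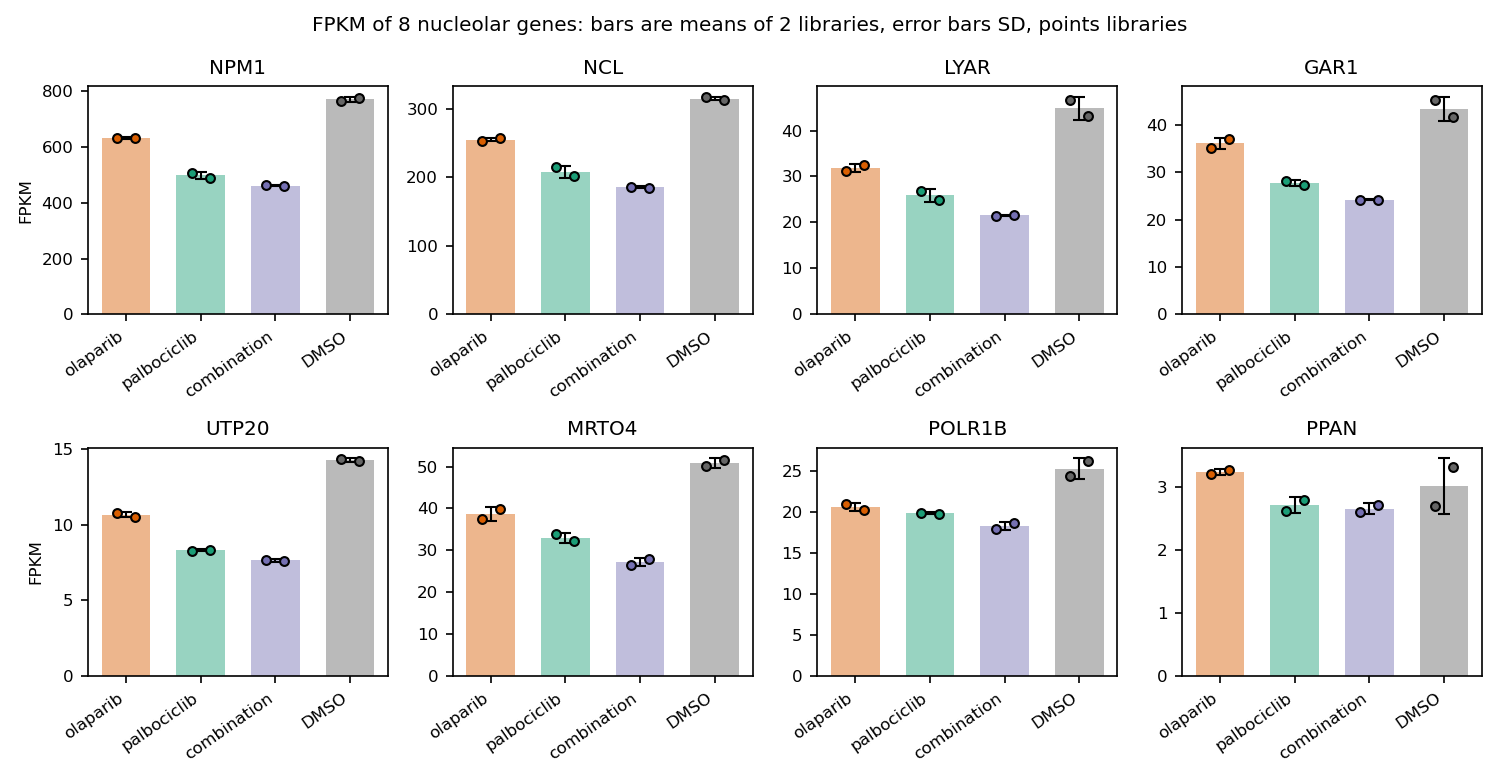
FPKM of 8 of the genes by group; bars are means of 2 libraries, error bars the SD and points the libraries, and each panel has its own axis from 0. In 7 panels every treated point lies below both DMSO points, while in PPAN the DMSO points span most of the range of the treated ones.

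The snoRNPs guide chemical modification of rRNA: box C/D particles carry the methyltransferase fibrillarin (FBL) with NOP56 and NOP58, and box H/ACA particles carry the pseudouridine synthase dyskerin (DKC1) with GAR1, NHP2 and NOP10. Of the 7 genes, 5 were lower with olaparib (10.5% of all genes tested), 6 with palbociclib (31.4%) and 7 with the combination (35.3%). GAR1 had the lowest fold changes of the role with palbociclib and the combination. It measured 35.2 and 36.97 FPKM with olaparib, 28.1 and 27.3 with palbociclib, 24.2 and 24.1 with the combination and 45.2 and 41.6 with DMSO, without overlap between treated and DMSO libraries. Its log2 fold changes were −0.26, −0.63 and −0.82, each ± 0.048 (SE; limma adjusted p = 0.0207, 1.00e-04 and 2.44e-05). DKC1 measured 45.1 and 45.7 FPKM with olaparib, 41.1 and 39.4 with palbociclib, 36.03 and 35.3 with the combination and 56.9 and 56.5 with DMSO. All 3 fold changes of DKC1 (−0.31, −0.49 and −0.65) passed.

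Among box C/D proteins, FBL was lower with palbociclib and did not pass the threshold with olaparib. FBL measured 123 and 128 FPKM with olaparib, 95.6 and 93.5 with palbociclib, 82.5 and 86.8 with the combination and 135 and 132 with DMSO. Its log2 fold change of −0.086 ± 0.040 with olaparib did not pass (limma adjusted p = 0.189) and turned sign under quantile normalisation, while that of −0.49 with palbociclib did (adjusted p = 1.26e-04). Palbociclib against olaparib, the test of that difference, gave −0.41 ± 0.040 for FBL (adjusted p = 6.05e-04). NOP58, which binds the snoRNA with NOP56, measured 57.3 and 55.2 FPKM with olaparib, 47.8 and 45.1 with palbociclib, 40.6 and 39.6 with the combination and 66.7 and 66.7 with DMSO. It was lower in each of the 3 comparisons with DMSO (−0.24, −0.51 and −0.72), as was NOP56 (−0.25, −0.38 and −0.54).

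The remaining box H/ACA genes had the fold changes of the role nearest to 0 with the combination. NOP10, a small protein that holds the particle together, had the highest level of the snoRNP genes, with 209 and 219.6 FPKM with olaparib, 208 and 206 with palbociclib, 197 and 205 with the combination and 263 and 246 with DMSO. Its fold changes of −0.25, −0.30 and −0.34 all passed, and the combination and palbociclib lay close together. The NOP10 calls with palbociclib and with the combination were each lost under TPM or quantile scaling. NHP2, an RNA-binding core protein, measured 55.4 and 64.4 FPKM with olaparib, 53.5 and 57.8 with palbociclib, 49.1 and 54.1 with the combination and 62.9 and 62.01 with DMSO. Of the comparisons with DMSO it passed with the combination only (−0.27 ± 0.080, limma adjusted p = 0.0226). That call was lost without DMSO library 1 (adjusted p = 0.0905), DMSO library 2 (0.0747) or combination library 1 (0.111). For NHP2, 1 olaparib library lay above both DMSO libraries, and the sign with olaparib and with palbociclib turned under quantile normalisation. Of the exon bases of NHP2, 27.4% lie opposite another gene, and the labels and headers do not say whether reads were counted by strand.

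Large subunit factors were lower in 13 of 19 genes with olaparib, and in 18 of 19 with palbociclib and with the combination. Among all genes tested, 10.5%, 31.4% and 35.3% were lower. MRTO4, which holds the place of a stalk protein on the maturing particle (known from yeast Mrt4), was the lowest with palbociclib and with the combination. It measured 37.4 and 39.8 FPKM with olaparib, 33.9 and 32.1 with palbociclib, 26.5 and 27.96 with the combination and 50.02 and 51.6 with DMSO. No group overlapped another, and log2 fold changes were −0.39, −0.61 and −0.88, each ± 0.048 (SE; limma adjusted p = 0.0113, 1.16e-04 and 2.13e-05). EBNA1BP2, a factor for precursor processing whose yeast counterpart is Ebp2, was the lowest of the role with olaparib. It measured 22.7 and 24.5 FPKM with olaparib, 23.4 and 21.7 with palbociclib, 18.4 and 18.8 with the combination and 32.5 and 33.2 with DMSO. Its fold change was nearly the same with olaparib (−0.46) as with palbociclib (−0.52), and that with the combination was −0.79. DDX18, an RNA helicase, measured 28.3 and 27.3 FPKM with olaparib, 24.9 and 21.8 with palbociclib, 20.7 and 20.005 with the combination and 34.5 and 34.8 with DMSO, and passed in each comparison (−0.31, −0.55 and −0.74).

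The PeBoW complex of PES1, BOP1 and WDR12 is needed for maturation of the large subunit rRNA. With olaparib PES1 and WDR12 passed the threshold and BOP1 did not, and differences between the 3 genes were not tested. PES1 measured 62.1 and 66.1 FPKM with olaparib, 57.3 and 56.99 with palbociclib, 49.2 and 53.4 with the combination and 74.2 and 74.5 with DMSO, and was lower in each (−0.21, −0.37 and −0.53). BOP1 measured 66.4 and 75.02 FPKM with olaparib, 57.4 and 58.1 with palbociclib, 47.5 and 54.6 with the combination and 71.5 and 74.2 with DMSO. With olaparib BOP1 had a fold change of −0.044 ± 0.078 (limma adjusted p = 0.734) whose sign turned under quantile normalisation and TPM, and an olaparib library overlapped the DMSO libraries. BOP1 was lower with palbociclib (−0.33) and the combination (−0.51), though the palbociclib call was lost without DMSO library 2 (limma adjusted p = 0.0637) or palbociclib library 1 (0.0532). WDR12 was lower in all 3 (−0.28, −0.22 and −0.29), with about the same value in each.

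PPAN, a factor of early large subunit assembly, was the 1 gene of the 55 that passed in no comparison with DMSO. It measured 3.21 and 3.27 FPKM with olaparib, 2.63 and 2.80 with palbociclib, 2.60 and 2.72 with the combination and 2.70 and 3.33 with DMSO. Treated and DMSO libraries overlapped in all 3 comparisons, and its fold changes were 0.083, −0.11 and −0.13, each ± 0.081 (SE; limma adjusted p = 0.527, 0.303 and 0.210). Without DMSO library 1, PPAN passed with the combination (−0.24, limma adjusted p = 0.0372). Its level was the lowest of the 55 genes, and 59.8% of its exon bases are shared with same-strand annotations, the PPAN-P2RY11 readthrough gene and P2RY11, so its reads could be split by the counting. NOP2, an rRNA methyltransferase with 54.4% of its exon bases shared with another same-strand annotation, was lower in all 3 comparisons (−0.27, −0.34 and −0.51).

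The other 11 large subunit genes were NOP16, WDR74, RRP1B, RRS1, BRIX1, GNL2, GNL3 (nucleostemin), GRWD1, NOC2L, NOC3L and NIP7, all lower with palbociclib and with the combination. With the combination they ran from −0.72 for NOP16, −0.72 for BRIX1 and −0.72 for GRWD1, a histone-binding assembly factor, to −0.37 for NOC3L. With olaparib RRS1 (−0.22), GNL2 (−0.19), GRWD1 (−0.19) and NOC3L (−0.22) did not pass the threshold.

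Of the small subunit genes, 14 of 18 were lower with olaparib and 18 of 18 with palbociclib and with the combination. The shares of all genes tested were 10.5%, 31.4% and 35.3%. UTP20, a large scaffold protein of the early small subunit particle (the processome), had the lowest fold change of the role in all 3 comparisons. It lies at chromosome 12, 101280109 to 101386616, plus strand (GRCh38, ENSG00000120800). It measured 10.8 and 10.5 FPKM with olaparib, 8.28 and 8.35 with palbociclib, 7.68 and 7.58 with the combination and 14.4 and 14.2 with DMSO, and no group overlapped another. Log2 fold changes were −0.39, −0.71 and −0.82, each ± 0.035 (SE; limma adjusted p = 0.00554, 3.76e-05 and 1.45e-05). IMP4, a protein that joins the snoRNA U3 to the rRNA precursor, measured 33.98 and 36.2 FPKM with olaparib, 29.6 and 29.4 with palbociclib, 25.1 and 25.96 with the combination and 43.1 and 42.8 with DMSO. Its fold changes of −0.28, −0.53 and −0.73 all passed. UTP20 and IMP4 carry E-boxes printed above.

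WDR43 and RRP9 had the highest levels among small subunit genes. WDR43, a processome protein that also acts in RNA polymerase I transcription, measured 55.6 and 53.7 FPKM with olaparib, 48.1 and 45.3 with palbociclib, 44.3 and 39.7 with the combination and 67.6 and 65.4 with DMSO (−0.28, −0.50 and −0.65, all passed). RRP9, a protein of the U3 snoRNP, measured 54.8 and 61.99 FPKM with olaparib, 56.7 and 52.3 with palbociclib, 43.7 and 47.3 with the combination and 68.8 and 71.7 with DMSO. RRP9 did not pass with olaparib (−0.26 ± 0.071, limma adjusted p = 0.0512), where its libraries were further apart, and was lower with palbociclib (−0.36) and the combination (−0.62). UTP14A, a late-acting processome protein, had the smallest change of the role with the combination. It measured 13.3 and 13.1 FPKM with olaparib, 13.1 and 12.8 with palbociclib, 12.3 and 12.4 with the combination and 15.4 and 15.8 with DMSO, and its 3 fold changes (−0.23, −0.25 and −0.31) lay close together.

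The other 13 small subunit genes were all lower with the combination, from −0.62 for UTP18, a WD-repeat protein of the processome, and −0.61 for NAT10, which acetylates the rRNA, to −0.33 for WDR75. IMP3, the partner of IMP4, had the widest error of the 55 genes (−0.32 ± 0.11 with olaparib, limma adjusted p = 0.0929) and 59.3% of its exon bases lie opposite other genes. With olaparib NOP14 (−0.13) and NOC4L (−0.094) also missed the threshold; their yeast counterparts act as a pair in small subunit maturation.

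RNA polymerase I genes had the role median nearest to 0. Of 4, 2 were lower with olaparib, 2 with palbociclib and 4 with the combination, where 10.5%, 31.4% and 35.3% of all genes tested were lower. With only 4 genes, the palbociclib count is not far from that share. POLR1B, the second-largest subunit, measured 20.9 and 20.2 FPKM with olaparib, 19.9 and 19.8 with palbociclib, 17.9 and 18.6 with the combination and 24.3 and 26.1 with DMSO. It passed in each comparison (−0.28, −0.33 and −0.44, each ± 0.045, SE). POLR1E, an initiation and elongation subunit, measured 24.6 and 24.5 FPKM with olaparib, 28.2 and 24.5 with palbociclib, 23.6 and 22.4 with the combination and 29.2 and 30.8 with DMSO. It was lower with olaparib (−0.28, limma adjusted p = 0.0377) and not past the threshold with palbociclib (−0.19, adjusted p = 0.0535), but without palbociclib library 1 it passed there too (−0.28), and palbociclib against olaparib did not pass (0.093 ± 0.067, adjusted p = 0.321).

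POLR1A, the catalytic subunit, measured 18.2 and 19.1 FPKM with olaparib, 17.9 and 17.003 with palbociclib, 15.9 and 16.1 with the combination and 20.4 and 20.7 with DMSO, and was lower with palbociclib (−0.22) and the combination (−0.34). POLR1C, which RNA polymerase III also uses, measured 9.85 and 9.82 FPKM with olaparib, 10.6 and 10.1 with palbociclib, 9.29 and 9.51 with the combination and 10.95 and 10.4 with DMSO. Against DMSO only the combination passed for POLR1C (−0.17 ± 0.042, limma adjusted p = 0.0115), and this call was lost without DMSO library 1 (adjusted p = 0.0818) or combination library 1 (0.0522). With palbociclib its fold change was −0.043, a palbociclib library overlapped the DMSO libraries, and the sign turned under quantile normalisation, TPM and the test on recovered reads.

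With palbociclib added to olaparib most of the genes were lower still. With the combination 44 of 55 were lower than with olaparib alone and 0 higher (27.4% and 17% of all genes tested), 48 were lower and 0 higher at an unadjusted p under 0.05 (32.1% and 20.8% of all genes), and 43 were lower and 0 higher in the test on recovered reads (24.6% and 24.2% of all genes). The median log2 difference over the 55 genes was −0.33, where that over all genes was −0.042. By role, 14 of 18 small subunit, 16 of 19 large subunit, 5 of 7 snoRNP, 2 of 4 RNA polymerase I and 7 of 7 organiser genes were lower. The lowest values were those of TCOF1 (−0.60 ± 0.048), FBL (−0.56 ± 0.040) and GAR1 (−0.56 ± 0.048). At the other end stood WDR12 (−0.0082), IMP3 (−0.044) and WDR75 (−0.051), which did not pass.

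With olaparib added to palbociclib the differences were smaller, and none of the 55 passed by limma. All 55 log2 differences of the combination against palbociclib were below 0, as were 58% of those of all genes tested, and the median was −0.15 over the 55 genes and −0.020 over all genes. Both combination libraries lay below both palbociclib libraries in 48 of the 55 (29.1% of all genes). By limma 0 of 55 were lower and 0 higher at an adjusted p of 0.05 (0.0161% and 0.00804% of all genes), and 42 were lower and 0 higher at an unadjusted p under 0.05 (11.8% and 4.85%). The test on recovered reads called 11 lower (1.19%) and 0 higher (0.924%). The 11 were RRP9, IMP4, DDX10, EBNA1BP2, NIP7, MRTO4, NOP58, NCL, NOLC1, LYAR and MYBBP1A. In the limma fit NIP7 had the lowest difference (−0.27 ± 0.046, SE, adjusted p = 0.128), followed by MRTO4 (−0.27 ± 0.048), EBNA1BP2 (−0.26 ± 0.052) and RRP9 (−0.26 ± 0.071).

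The departure from additivity is the effect of olaparib with palbociclib minus its effect without it. By limma 0 of 55 genes were below and 0 above 0 at an adjusted p of 0.05 (0.00804% and 0% of all genes), and 17 had an unadjusted p under 0.05, all above 0, where 5.77% of all genes were above 0 and 4.80% below it at that threshold. The test on recovered reads called UTP20 above 0 and no member below it, while over all genes it called 5 above (0.0402%) and 162 below (1.30%). The estimate was above 0 in 45 of the 55 genes (54.6% of all genes tested) and below 0 in 10, with a median of 0.11 over the 55 and 0.016 over all genes. Above 0, the combination is less far below DMSO than the sum of the single drugs on the log scale. UTP20 had an estimate of 0.28 ± 0.050 (SE, limma adjusted p = 0.271), DDX21 of 0.23 ± 0.091 and LYAR of 0.23 ± 0.074. IMP3 had the highest (0.32 ± 0.16) with the widest error, and BOP1 the lowest (−0.13 ± 0.11).

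**Figure D5:**
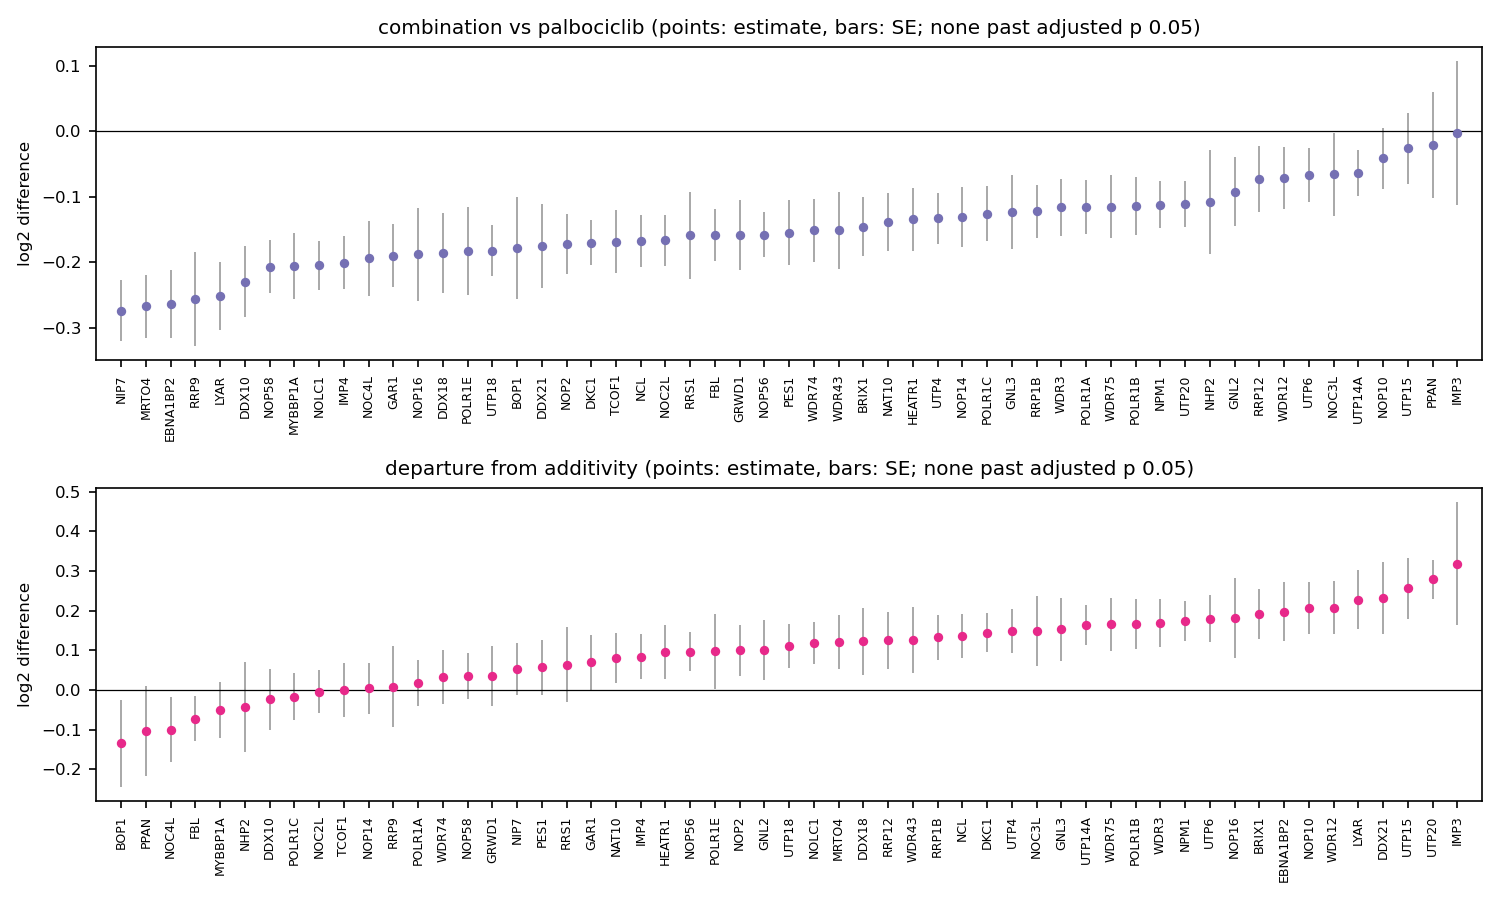
Each point is 1 of the 55 genes, ordered by value, with bars of 1 SE on the log2(FPKM + 1) scale; the upper panel shows the combination minus palbociclib and the lower panel the departure from additivity. All points of the upper panel lie below 0, and 45 of the 55 in the lower panel lie above it, while none passed an adjusted p of 0.05 by limma.

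Palbociclib and olaparib were also set against each other, a comparison added after values had been seen. With palbociclib 28 of the 55 genes were lower than with olaparib and 0 higher (20.5% and 14.1% of all genes tested), and 32 were lower and 0 higher at an unadjusted p under 0.05 (26.9% and 19.2%). The test on recovered reads called 26 lower and 0 higher (21% and 20.7% of all genes). The count by limma was 18 without olaparib library 2 (13.4% of all genes), 15 without palbociclib library 2 (11.5%) and 16 under quantile normalisation (17.3%). In these fits 0 of the 55 were higher, where 10%, 8.29% and 16.5% of all genes were. By role, 7 of 18 small subunit, 10 of 19 large subunit, 5 of 7 snoRNP, 0 of 4 RNA polymerase I and 6 of 7 organiser genes were lower. NPM1 (−0.34 ± 0.036), DDX21 (−0.36 ± 0.064) and GRWD1 (−0.37 ± 0.053) were among them, beside TCOF1 and FBL. EBNA1BP2 (−0.063 ± 0.052) and NIP7 (−0.030 ± 0.046) were not. Since doses are not given, the sizes of the effects are those of the doses used.

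The rest of the pathway was read from 113 further genes in 5 lists, of which 110 were tested. With olaparib 61 were lower and 0 higher, with palbociclib 94 were lower and 2 higher, and with the combination 105 were lower and 2 higher, beside the shares of all genes given above. Their median log2 fold changes were −0.20, −0.31 and −0.43. By list they were −0.23, −0.35 and −0.48 for other small subunit factors and −0.20, −0.29 and −0.40 for other large subunit factors. For snoRNP assembly factors they were −0.14, −0.26 and −0.34, and for exosome and processing nuclease genes −0.19, −0.36 and −0.45. Other RNA polymerase I genes had −0.17, −0.29 and −0.33, nearest to 0 of the lists with the combination only. With the combination 33 of 34 other small subunit factors, 35 of 36 other large subunit factors, 8 of 9 snoRNP assembly factors, 13 of 15 other RNA polymerase I genes and 16 of 16 exosome and processing nuclease genes were lower. MPHOSPH10, a U3 snoRNP protein that works with IMP3 and IMP4, measured 13.4 and 12.95 FPKM with olaparib, 12.001 and 10.9 with palbociclib, 10.01 and 9.79 with the combination and 17.7 and 17.6 with DMSO (−0.78 with the combination). LTV1, a factor for late small subunit maturation, had a log2 fold change of −0.80 there. RPF2, which brings a small rRNA particle to the large subunit, and MAK16, another early large subunit factor, both had −0.82.

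RUVBL1 (−0.76) and RUVBL2 (−0.55), the paired ATPases that assemble snoRNPs, were lower with the combination, as were the exosome subunits EXOSC8 (−0.79) and EXOSC9 (−0.76). The pattern among further RNA polymerase I genes was mixed. CD3EAP, which pairs with POLR1E in the enzyme, measured 4.05 and 3.94 FPKM with olaparib, 3.12 and 2.73 with palbociclib, 2.51 and 2.67 with the combination and 5.68 and 5.46 with DMSO, a fold change of −0.87 ± 0.063 with the combination. TWISTNB, another subunit, had −0.70. TAF1C, a subunit of the promoter factor SL1, was higher with the combination (0.24 ± 0.060, limma adjusted p = 0.0114), with 17.1 and 17.97 FPKM with olaparib, 18.4 and 19.6 with palbociclib, 18.01 and 20.2 with the combination and 15.9 and 16.1 with DMSO. NOP53, a late large subunit factor, was the other gene that was higher (0.28 ± 0.064, adjusted p = 0.00777), with 58.4 and 64.7 FPKM with the combination and 49.5 and 51.3 with DMSO.

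The 55 genes lie on 19 chromosomes, with at most 9 on 1 of them (chromosome 2), so that they do not form 1 cluster in the genome. In 8 of them (WDR43, GNL3, PPAN, NOP56, NOP58, DKC1, POLR1C and NCL) the annotation places 26 snoRNA genes, which the polyA libraries do not measure as mature RNAs. Pseudogenes that carry the name of the parent are annotated for 13 of the 55, with 71 in all.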

How the data were processed

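FPKM values for 31721 Ensembl genes, 1 column per library, were deposited by the authors, scaled by exon length and by a factor per library; replicates were not pooled. The tools listed, without their role, were HTSeq 0.6.0, STAR 2.5.1b and CASAVA 1.8, and the builds hg38 and GRCh38, per the submitters' processing notes. With GENCODE release 29 exon lengths, 28635 genes (90.3%) gave whole reads in all libraries within 0.01 reads; for 3085 further genes a length was searched. Of the 55 genes, 50 matched the annotated length. The deposited scaling equalled median-of-ratios size factors of these reads.

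Values were tested as log2(FPKM + 1) with limma 3.58.1 under R 4.3.3, all 8 libraries in a single fit with 1 mean per group, empirical Bayes with a trend (4 residual and 3.01 prior degrees of freedom), two-sided, and Benjamini-Hochberg adjustment over all genes tested in a comparison. Fold changes on this scale understate those of weakly expressed genes, errors of fold changes are SE, and errors of levels are SD. The 6 planned comparisons set olaparib, palbociclib and the combination against DMSO and the combination against either drug, and estimated the departure from additivity. Genes named with values per library were, within each role, the 2 with the highest mean FPKM and the 3 lowest and 1 highest in fold change with the combination. From each list of other pathway genes, the 2 lowest and 2 highest past the threshold were named, and further genes were named after their values were seen. The members, lists, markers and motifs were chosen with earlier results of these data known. Promoters came from RefSeq (GRCh38.p14). The alternatives were other pseudocounts (0.1 and 4), filters (none and a mean of 5), quantile and TPM scaling, a replicate block, limma voom with TMM on recovered reads, fits of the compared groups only, no trend, and leaving out each library. The fit was tested on simulated data. No protein sequences were used here.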

Additional observations from a re-analysis of the deposited data

How the results depend on the processing

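Palbociclib, combination and combination against olaparib counts stayed within 1.5 times under every alternative run. The olaparib count of 39 was 21 with no filter on low values, 23 after quantile normalisation and 0 to 40 without 1 library at a time. The comparison of the combination with palbociclib gave 11 genes on recovered reads with voom, and the departure from additivity 1. Palbociclib against olaparib gave 16 after quantile normalisation. Lower as deposited and under both TPM and quantile scaling were 22 genes with olaparib, 44 with palbociclib and 48 with the combination. Lost under either scaling with palbociclib were BOP1, IMP3, MYBBP1A, NOP10, POLR1A, WDR12 and WDR75. With the combination these were IMP3, NHP2, NOP10, POLR1C, POLR1E and WDR75. Without 1 library at a time the counts were 48 to 51 with palbociclib, 52 to 54 with the combination, 41 to 45 for the combination against olaparib, 15 to 30 for palbociclib against olaparib, and 0 for the combination against palbociclib and for the departure from additivity. Lower in the full fit and in all 8 of these fits were 0 genes with olaparib, 48 with palbociclib (not BOP1, IMP3 and WDR75) and 51 with the combination (not IMP3, NHP2 and POLR1C). Fits that left a group with 1 library assume that it varies like the other groups.

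The role medians in the order small subunit, large subunit, snoRNP, RNA polymerase I, organisers all stayed below 0. After quantile normalisation they were −0.19, −0.19, −0.15, −0.14 and −0.21 with olaparib alone, −0.25, −0.24, −0.30, −0.064 and −0.44 with palbociclib alone, and −0.35, −0.37, −0.37, −0.17 and −0.56 with the combination. After scaling to TPM they were −0.21, −0.20, −0.18, −0.15 and −0.24 with olaparib alone, −0.27, −0.30, −0.39, −0.11 and −0.52 with palbociclib alone, and −0.36, −0.44, −0.51, −0.23 and −0.63 with the combination. On recovered reads with voom they were −0.23, −0.22, −0.21, −0.17 and −0.26 with olaparib alone, −0.31, −0.33, −0.42, −0.14 and −0.55 with palbociclib alone, and −0.41, −0.48, −0.56, −0.28 and −0.67 with the combination. With a pseudocount of 4 the small subunit medians were −0.22, −0.30 and −0.42 in that order, and the snoRNP medians −0.46 and −0.61 with palbociclib and the combination. Without 1 library at a time they ran, by role, over −0.28 to −0.24, −0.27 to −0.24, −0.25 to −0.20, −0.23 to −0.19 and −0.31 to −0.29 with olaparib; −0.39 to −0.32, −0.42 to −0.37, −0.51 to −0.46, −0.27 to −0.14 and −0.64 to −0.56 with palbociclib; and −0.49 to −0.45, −0.60 to −0.55, −0.66 to −0.61, −0.38 to −0.33 and −0.77 to −0.76 with the combination. Scaling to TPM moved the median of all genes with the combination to 0.060, against −0.062 as deposited. The median of the 55 genes there was −0.40 by TPM and −0.37 after quantile normalisation, against −0.53 as deposited. Small changes thus depend on the scaling, and the shift of all genes is not an upper limit for these genes. The cause of these differences between settings was not tested.

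Sign changes among the named genes fell on values that did not pass. With olaparib BOP1 was 0.053 after quantile normalisation, 0.019 by TPM and −0.13 to 0.043 without 1 library at a time (0.043 without olaparib replicate 1), FBL was 0.014 after quantile normalisation, and NHP2 was 0.0093 after quantile normalisation and 0.043 without olaparib replicate 1. PPAN ran from −0.030 (without DMSO replicate 1) to 0.20 with olaparib and was 0.0046 with palbociclib without DMSO replicate 2. With palbociclib NHP2 was 0.013 after quantile normalisation, and POLR1C was 0.030 after quantile normalisation, 0.055 by TPM and 0.024 on recovered reads. Of the other values of named genes under an alternative, 1463 kept their side of the threshold, 106 lost it and 15 gained it.

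Same-numbered libraries shared little deviation: their deviations correlated between −0.047 and 0.034. Whether they were grown or prepared together cannot be told from these values, and the labels state no pairing. With the replicate number as a block, 42, 51, 54, 46, 0 and 0 genes were called in the 6 planned comparisons, and 30 for palbociclib against olaparib. All of these were lower. Of all 12443 genes, 1451, 4020, 4532, 3554, 2 and 0 were lower in that fit, and 2729 for palbociclib against olaparib. Higher were 661, 2374, 2703, 2142, 1 and 0, and 1807. With 2 libraries in each group, the smallest p that exact permutation allows is 0.333.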
